A study of Mus musculus with 2 samples.

Results

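The type I interferon stimulated genes described here are 34 named genes that cells switch on after interferon alpha or beta reaches its receptor. The members were chosen by gene symbol, and 33 of the 34 symbols were found among the 32285 genes of the count tables. Mx1, an antiviral GTPase, was not analysed here. The members cover nucleic acid sensors (Ifih1, Ddx58, Dhx58, Zbp1, Ifi204 and Eif2ak2), regulators (Irf7, Stat2 and Usp18), the ISG15 system (Isg15, Herc6 and Usp18), the IFIT family, the oligoadenylate synthetases, a group of nucleotide and virus effectors, and 4 other genes.

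Type I interferons bind a receptor made of Ifnar1 and Ifnar2, whose kinases Jak1 and Tyk2 activate transcription factors, Stat2 among them. Stat2 and Irf9 are part of the complex ISGF3, which binds interferon-stimulated response elements in the promoters of the target genes. The products act against viral RNA and protein synthesis, and some feed back on the pathway. In tumours, type I interferon is best known for arming dendritic cells to prime T cells.

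The 2 groups were a library labelled Arg and a library labelled Control, with 1 library each. Both came from BALB/c mice, 5 weeks old at the start of the diets, that carried subcutaneous CT26 tumours, a mouse colorectal carcinoma line, and tumours were taken on day 20. Per the series' design text, one arm ate an isocaloric diet lacking arginine and the other a normal diet, each from 1 week before the tumour cells. The library name Arg states no diet of its own, and it was matched to the diet lacking arginine through that text. Immune cells were enriched by magnetic CD45 selection. The sources used here do not say how many mice each library came from. With 1 library per diet, no difference below has a replicate, and no test was made. All intervals are 95% intervals for counting error only, and they are too narrow, because the molecules of a cell are not independent draws.

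After filtering, 12991 Arg cells with a median of 8294 unique molecular identifiers (UMIs, counted transcript molecules) and 12800 Control cells with a median of 10021 remained. The libraries shared 44 cell barcodes, which were kept in both. Cells were clustered without the members and without 78 further interferon genes, and 11 classes named from marker genes had at least 100 cells in both libraries. Genes that lean towards interferon gamma stayed available to the clustering, so the clusters were not blind to interferon. One of them, Cxcl9, was among the leading genes of the unnamed cluster C0 and the macrophage cluster C11. Names mean that a cluster resembles that cell type. The unnamed clusters C8 and C12, both with Rhox5 among their leading genes, had the CD45 gene Ptprc in 32.4% and 47.6% of Arg cells and 26.9% and 38.5% of Control cells, against 98.1% of Arg and 97.8% of Control monocytes.

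A promoter sequence that the choice of genes did not use recurred among the members. The motif GAAANNGAAA, the core of the interferon-stimulated response element, was searched on both strands in the 250 bases before the start of each gene in the RefSeq promoter table (build GRCm38.p6). It was found in 12 of the 25 members with an entry (48%), against 3.46% of all 27025 genes in the table. The rate was 22 of 67 (32.8%) for other interferon-stimulated genes and 9 of 17 (52.9%) for genes that lean towards interferon gamma. It was 1 of 8 (12.5%) for receptor and signalling genes and 1 of 14 for a list around nucleic acid sensing and interferon induction. A match is a description of letters and not a measured binding site. The windows below show the match nearest to the start for some of the members named in the results, with the motif in capitals. Bst2, Trim30a and Trim30d also had a match, and their windows are not shown. In the Isg15 window the capitals run on because 3 matches overlap, in the Oas1a window because 2 overlap, and the capital at the left of the Ifit1 window is the end of a more distant match.
Isg15 promoter window, chr4:156200865-156200894, minus strand: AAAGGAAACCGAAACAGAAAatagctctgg
Ifit1 promoter window, chr19:34640794-34640823, plus strand: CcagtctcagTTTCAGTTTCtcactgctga
Ifit3 promoter window, chr19:34583397-34583426, plus strand: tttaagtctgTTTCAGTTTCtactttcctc
Ifit3b promoter window, chr19:34607793-34607822, plus strand: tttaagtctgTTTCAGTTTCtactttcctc
Stat2 promoter window, chr10:128270266-128270295, plus strand: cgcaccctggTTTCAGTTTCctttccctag
Oas1a promoter window, chr5:120907526-120907549, minus strand: tcggGAAATGGAAACTGAAAatct
Oas3 promoter window, chr5:120777715-120777744, minus strand: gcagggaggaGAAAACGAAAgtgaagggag
Rsad2 promoter window, chr12:26456553-26456582, minus strand: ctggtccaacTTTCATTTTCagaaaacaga
Slfn5 promoter window, chr11:82951937-82951966, plus strand: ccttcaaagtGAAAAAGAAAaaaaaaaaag
Ifit3 and Ifit3b carried the same 30 bases at different distances from their starts. The deposited counts may not separate reads from these near-identical neighbours, which lie at GRCm38 positions (GENCODE) chr19:34583531-34588731 and chr19:34607970-34613401 on the same strand, so their separate values are uncertain. The 4 IFIT genes lie together on chromosome 19, and all 5 oligoadenylate synthetase members lie on chromosome 5.

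Among the 11 compared classes, neutrophils and monocytes carried the highest summed member level in both libraries, and CD8 T cells and NK cells the lowest. Levels are CPM, the standard depth-scaled count (a gene's UMIs over all UMIs of the class in that library), summed over the 33 members. Neutrophils had 12578 CPM in Arg and 7607 CPM in Control, and monocytes had 11029.7 CPM in Arg and 8577 CPM in Control. Plasmacytoid dendritic cells (DC) followed with 6038 CPM in Arg and 7069 CPM in Control, and cDC2, the conventional DC that present mainly to CD4 T cells, with 5747 CPM in Arg and 6837 CPM in Control. Macrophages had 5045 CPM in Arg and 4603 CPM in Control. At the other end, CD8 T cells had 2070.1 CPM in Arg and 2133 CPM in Control and NK cells 1545 CPM in Arg and 1948 CPM in Control. The order of the first 2 classes differed, with neutrophils above monocytes in Arg and monocytes above neutrophils in Control.

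In Arg, regulatory T cells (3374 CPM), CD4 T cells (3223 CPM) and cDC1 (3205 CPM) stood next to each other, and the counting intervals of neighbours in this order overlapped. The sum in plasmacytoid DC rested mainly on 1 gene. Bst2, which encodes tetherin and is a surface marker of these cells, had 3331 CPM in Arg and 4154 CPM in Control. Bst2, Ifi27l2a and Ms4a4c together made up 70.3% of the sum in Arg and 73.8% in Control plasmacytoid DC.

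**Figure D1:**
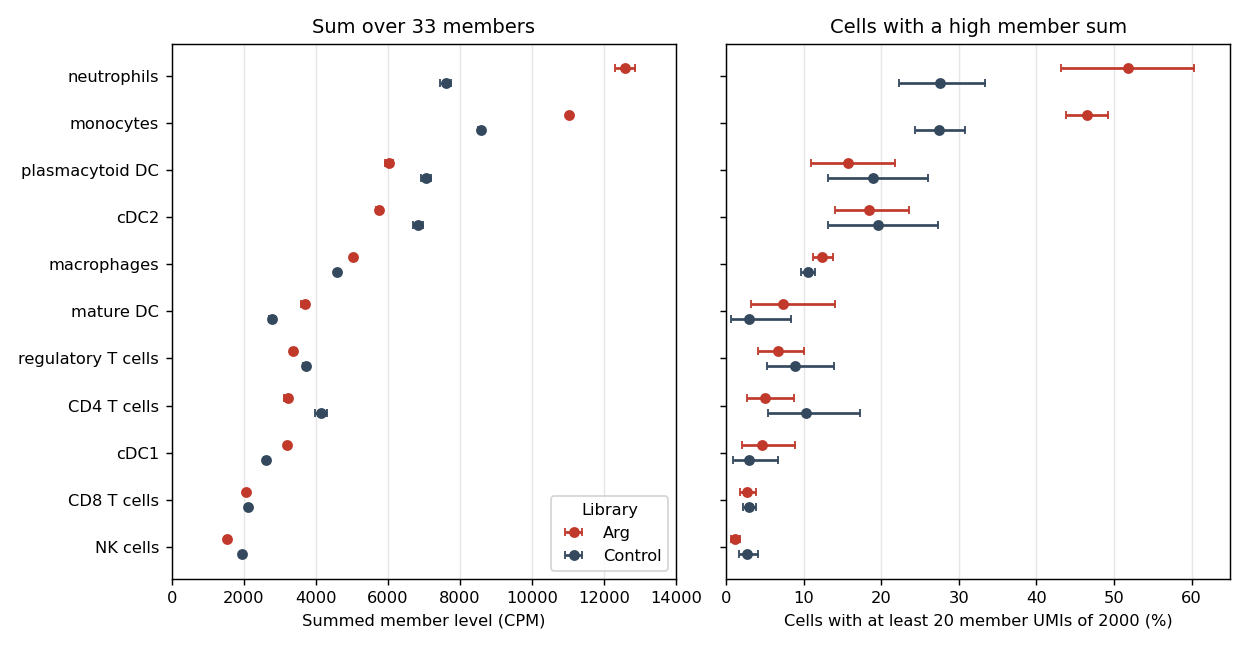
Summed level of the 33 members in CPM (left) and percentage of cells with at least 20 member UMIs among 2000 (right) in the 11 compared classes, with Arg in red above Control in dark blue and 95% counting intervals as bars. Neutrophils and monocytes of the Arg library lie at the top with 12578 and 11029.7 CPM, and NK cells at the bottom with 1545 CPM.

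The comparison of Arg with Control asks how the members differ between the diets within each class. The summed level was higher in Arg in 5 of the 11 classes and lower in 6, from 0.779-fold in CD4 T cells to 1.65-fold in neutrophils. For single genes, a log2 ratio is log2 of Arg CPM + 5 over Control CPM + 5, which understates differences of low genes. A gene was measured in a class at 20 CPM or more in either library, and it was past the fold limit at a log2 ratio of 0.5 or more in either direction, a 1.41-fold difference. Over all kept cells, 12 of 31 measured members were past the limit upwards and 0 downwards, against 9.64% and 8.13% of all measured genes, but that total mixes classes whose shares of the libraries differed.

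Neutrophils showed the largest difference among the classes. Their summed level was 12578 CPM in Arg and 7607 CPM in Control, which is 1.65-fold (95% interval 1.61 to 1.70) higher. Of the 33 members, all measured, 21 were past the fold limit upwards and 0 downwards, while 13.3% of all genes measured in neutrophils were past it upwards and 18% downwards. The median log2 ratio was 0.73 over the members and -0.07 over all measured genes. The class held 233 Arg and 447 Control cells, with a low median depth of 2220 and 2191 UMIs.

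The IFIT genes, whose products bind viral RNA, led the difference. Ifit2 had 258 CPM in Arg and 60.4 CPM in Control, which is 4.28-fold (95% interval 3.25 to 5.66). Ifit3 had 184 CPM in Arg and 64.2 CPM in Control, and Ifit1 had 551 CPM in Arg and 281 CPM in Control. All 4 IFIT genes were past the limit, and their intervals did not overlap between the libraries. Cmpk2, a mitochondrial nucleotide kinase, had 168 CPM in Arg and 47.0 CPM in Control, which is 3.57-fold (95% interval 2.59 to 4.97). Its neighbour Rsad2 encodes viperin, which makes a chain-terminating nucleotide, and had 1509 CPM in Arg and 879.6 CPM in Control. The ISG15 system moved the same way: Isg15, the ubiquitin-like modifier, had 2181 CPM in Arg and 1259 CPM in Control. Herc6, its ligase in the mouse, had 436 CPM in Arg and 172 CPM in Control, and Usp18, which removes ISG15 and restrains the receptor, had 152 CPM in Arg and 69.4 CPM in Control.

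Among the regulators, the ISGF3 subunit Stat2 had 165 CPM in Arg and 68.6 CPM in Control, and Irf7, the factor that amplifies interferon production, had 265 CPM in Arg and 159 CPM in Control. Slfn5, a schlafen family member, had 727 CPM in Arg and 331 CPM in Control. At the other end of the list Eif2ak2, which encodes the RNA-activated kinase PKR, had 42.0 CPM in Arg and 47.0 CPM in Control with a log2 ratio of -0.15, and Bst2 had 181 CPM in Arg and 184 CPM in Control with -0.03. Ifi44, Ifi204 and Ifi27l2a lay between 0.11 and 0.17. By role, 3 of 6 sensors, all 3 regulators, 8 of 9 effectors, 1 of 5 oligoadenylate synthetase genes (Oas3) and none of the 4 other genes were past the limit upwards.

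The share of neutrophils with a UMI differed by gene. Isg15 had a UMI in 81.1% of Arg and 71.1% of Control neutrophils, and Herc6 in 49.4% and 24.6%. Ifi27l2a had one in 71.2% of Arg and 74.7% of Control neutrophils, Ifi44 in 8.58% and 10.5%, and any member in 98.7% and 97.8%. Ifit2 was carried by few cells, 41 of 233 in Arg and 30 of 447 in Control, and 5 cells held 53.8% of its Arg UMIs and 48.1% of its Control UMIs. Over all members, 5 cells held 15.1% in Arg and 9.89% in Control. Macrophage transcripts were also counted in neutrophils. The macrophage complement genes C1qa, C1qb and C1qc stood at 384 CPM in Arg and 935 CPM in Control neutrophils, which is 20.6% of their level over all Arg cells and 26.1% over all Control cells. At those percentages of the level over all cells the members would reach 962 CPM in Arg and 997 CPM in Control, below the measured sums, and the part of such transcripts in the result was not tested.

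**Figure D2:**
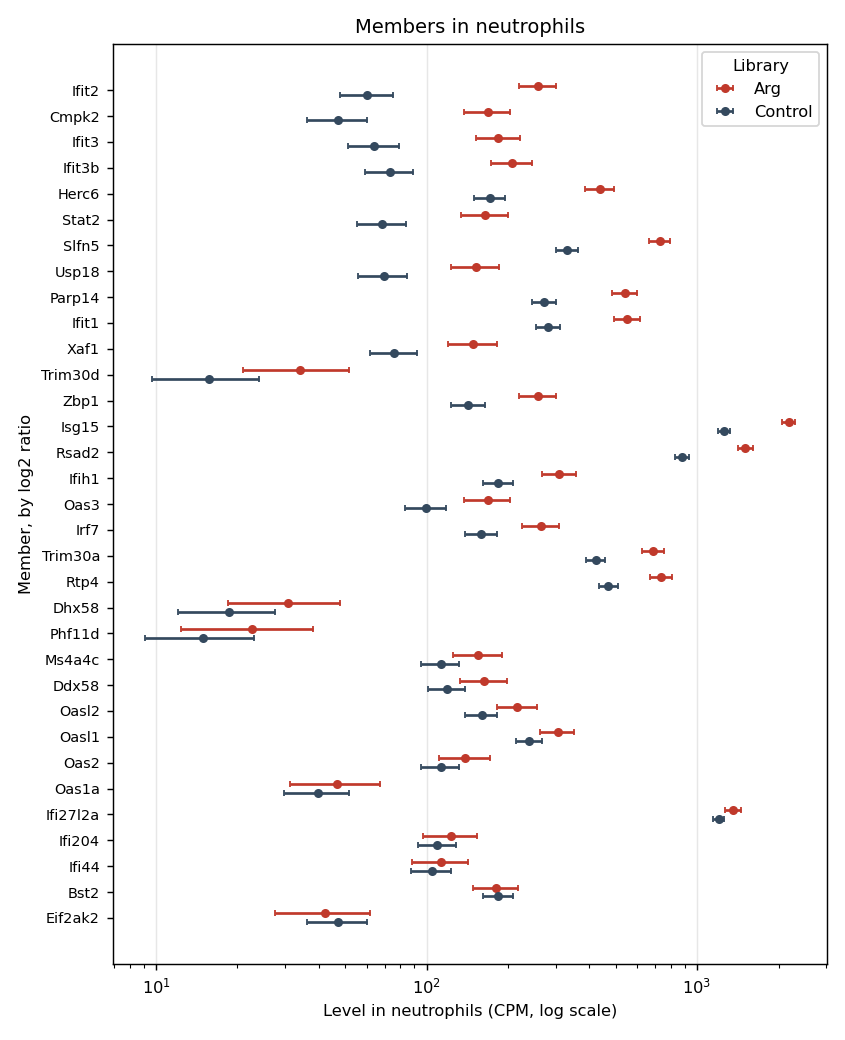
Level of each of the 33 members in neutrophils in CPM on a log scale, Arg in red above Control in dark blue, with 95% counting intervals, ordered from the highest log2 ratio at the top to the lowest. Ifit2 (258 CPM in Arg, 60.4 CPM in Control) and Cmpk2 stand farthest apart, and Bst2 and Eif2ak2 overlap.

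Monocytes also had many members higher in Arg, but not once the neighbouring cluster was pooled with them. The class was the single cluster C2, with 1389 Arg and 779 Control cells, and its summed level was 11029.7 CPM in Arg and 8577 CPM in Control, 1.29-fold (95% interval 1.27 to 1.30) higher. Of 32 measured members, 12 were past the fold limit upwards and 0 downwards, against 4.43% and 2.44% of all measured genes. The neighbouring unnamed cluster C0, with 1918 Arg and 728 Control cells, went the other way at 7015 CPM in Arg and 7715 CPM in Control, with 0 members past the limit upwards and 4 downwards (4.29% and 3.09% of all genes). C0 had a mean log2 fold of 0.388 for monocyte and 0.357 for macrophage markers, both below the 0.5 needed for a name. Pooling it with the monocytes was therefore a choice. Pooled, C2 and C0 had 8361 CPM in Arg and 8119 CPM in Control, 1.03-fold (95% interval 1.02 to 1.04), and none of 32 measured members was past the limit in either direction, against 3.2% and 2.7% of all genes. All monocyte and macrophage clusters pooled with C0 and C4 had 11 of 32 members past it upwards and 0 downwards, against 9.35% and 5.98% of all genes. C4 alone, another unnamed cluster, had 0 of 31 upwards and 1 downwards, against 5.53% and 2.09%. With doublets kept, or at Leiden resolution 0.5, 1 member of the monocyte class was past the limit upwards. Both settings also changed which cells the class held.

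Within C2, Ifit2 had 186 CPM in Arg and 105 CPM in Control and Oasl2 had 164 CPM in Arg and 92.6 CPM in Control, the 2 highest log2 ratios at 0.79 and 0.79. Ifit3 had 109 CPM in Arg and 63.3 CPM in Control, and Stat2 had 159.7 CPM in Arg and 99.0 CPM in Control. Trim30d, a relative of the mouse Toll-like receptor inhibitor Trim30a, had 128 CPM in Arg and 79.1 CPM in Control. These 5 members were all past the limit. Reads of Trim30 family genes may be shared between copies, so the Trim30d value is uncertain. The most abundant members by count in this class were Ifi27l2a (2239 CPM in Arg and 2075 in Control), Ms4a4c (1059 CPM in Arg and 695 in Control), Isg15 (776 CPM in Arg and 555 in Control), Slfn5 (725 CPM in Arg and 508 in Control) and Ifi44 (656 CPM in Arg and 484 in Control). Of these, Ms4a4c and Slfn5 were past the limit. The lowest log2 ratios belonged to Bst2 (-0.02), Cmpk2 (0.06), Oas2 (0.10), Ifi27l2a (0.11) and Oasl1 (0.13), none past the limit.

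A cell was called high when at least 20 of 2000 UMIs, drawn at random from its counts so that all cells had equal depth, came from members. In monocytes 46.5% of 1359 Arg cells (95% interval 43.8 to 49.2%) and 27.5% of 764 Control cells (95% interval 24.3 to 30.8%) were high. In neutrophils the shares were 51.8% of 141 Arg cells (95% interval 43.2 to 60.3%) and 27.6% of 268 Control cells (95% interval 22.3 to 33.4%), after 92 Arg and 179 Control neutrophils with fewer than 2000 UMIs were left out. Without thinning they were 51.5% in Arg and 26.4% in Control neutrophils, and 44.3% in Arg and 24.0% in Control monocytes. The limit cuts through a continuous range, with 145 Arg and 74 Control monocytes at 18 to 21 member UMIs. The medians were 18 member UMIs in Arg and 13 in Control monocytes. In cluster C0 the shares of high cells were 25.5% in Arg and 24.6% in Control.

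**Figure D3:**
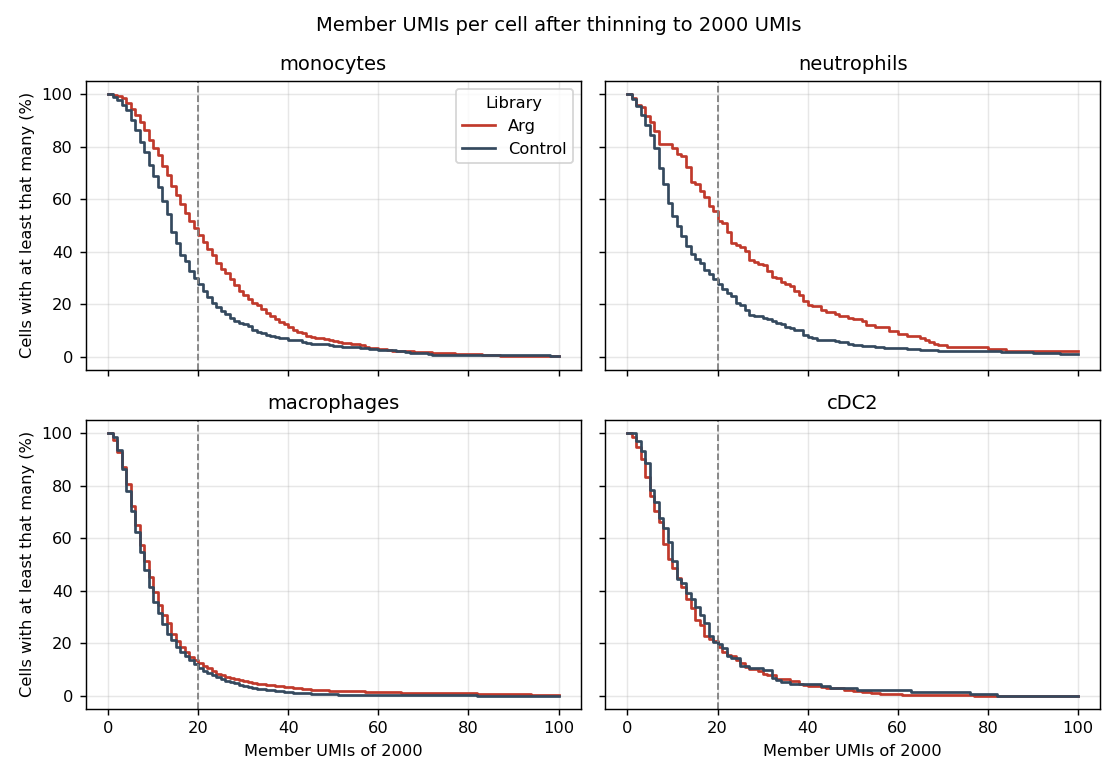
Percentage of cells (vertical axis) with at least the number of member UMIs among 2000 on the horizontal axis, in monocytes, neutrophils, macrophages and cDC2, Arg in red and Control in dark blue, with a dashed line at 20 UMIs. The Arg curve lies above the Control curve over most of the range in monocytes and neutrophils (51.8% of Arg and 27.6% of Control neutrophils at 20 UMIs), and the curves nearly coincide in macrophages and cDC2.

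High cells came mostly from monocyte and macrophage clusters in both libraries, 1816 in Arg and 1187 in Control. Monocytes made up 34.8% of the high cells in Arg and 17.7% in Control, cluster C0 25.7% and 14.4%, and macrophages 17.8% and 39.5%. These proportions follow the numbers of cells recovered in each class as well as the levels.

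In macrophages the members differed little in sum, and genes moved unequally. The summed level was 5045 CPM in Arg and 4603 CPM in Control, 1.10-fold (95% interval 1.09 to 1.10), and 9 of 32 measured members were past the fold limit upwards and 0 downwards, against 8.71% and 5.48% of all measured genes. Rsad2 had the highest log2 ratio, 0.73, with 205 CPM in Arg and 122 CPM in Control. Isg15 had 313 CPM in Arg and 196 CPM in Control, Slfn5 153 CPM in Arg and 99.9 CPM in Control, and Ifit2 85.0 CPM in Arg and 55.0 CPM in Control. All 4 of these were past the limit. Ifi27l2a, the most abundant member by count, had 993 CPM in Arg and 1389 CPM in Control, a log2 ratio of -0.48 that stayed inside it. Bst2 was at -0.09, Oas1a at 0.04, Phf11d at 0.08 and Oas2 at 0.08. Without Ifi27l2a, Bst2 and Ms4a4c the summed log2 ratio was 0.45 in place of 0.13.

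Different clusters held the macrophages of the libraries, and the direction was not shared by all of them. Cluster C1 held 14.6% of Arg and 42.8% of Control macrophages, and C7 held 33.9% and 12.1%. The sum was higher in Arg in 3 of the 5 clusters and lower in 2. In C7 it was 5136 CPM in Arg and 4454 CPM in Control, and in C6 it was 4793 CPM in Arg and 6439.6 CPM in Control. With doublets kept, 2 members were past the limit upwards, and at Leiden resolution 0.5, 1 was. Weighted by 1 common mix of the clusters, the log2 ratio was −0.04, none of the members was past the limit upwards and 1 was past it downwards, and the log2 ratio of Rsad2 turned to −0.07. In C6 the lower sum came from Ifi27l2a, Bst2 and Ms4a4c, since without these 3 members it was 3141 CPM in Arg and 2704 CPM in Control. Of the macrophages 12.4% of 2609 Arg cells (95% interval 11.2 to 13.7%) and 10.6% of 4438 Control cells (95% interval 9.68 to 11.5%) were high.

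**Figure D4:**
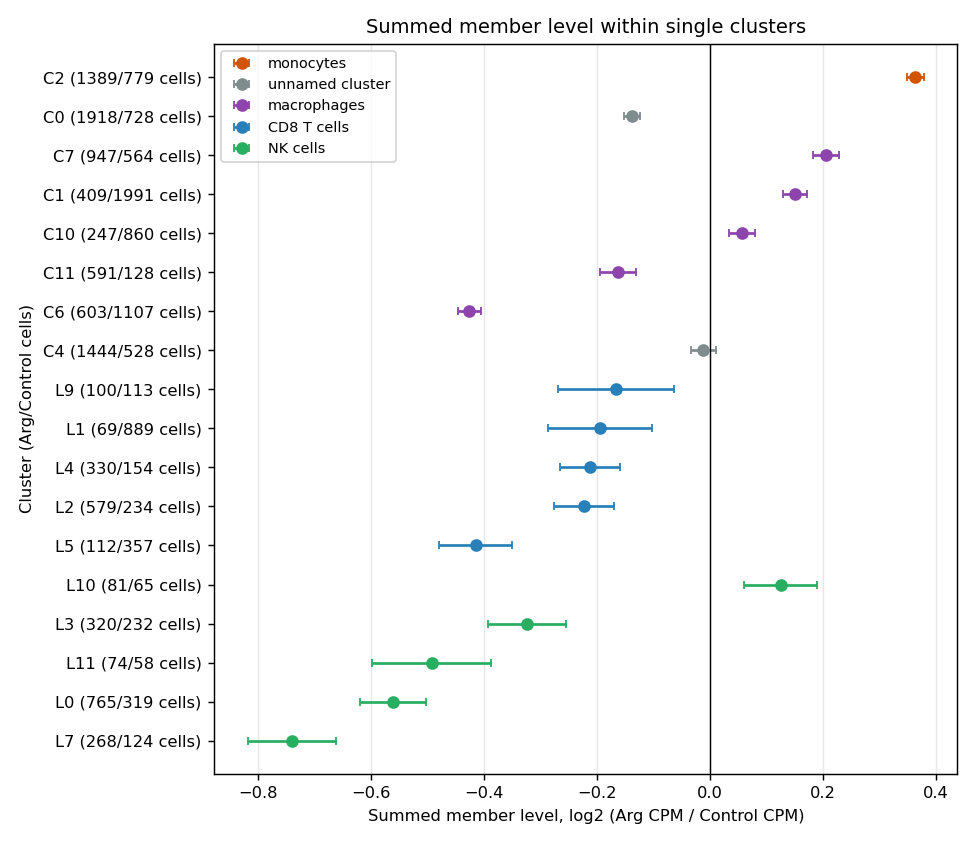
Log2 ratio of the summed member level, Arg over Control (horizontal axis), within each cluster of monocytes, macrophages, CD8 T cells and NK cells and in the unnamed clusters C0 and C4, with 95% counting intervals and the numbers of Arg and Control cells beside each name. All 5 CD8 T clusters and 4 of the 5 NK clusters lie left of 0, and the macrophage clusters lie on both sides.

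CD8 T cells had nearly equal sums, 2070.1 CPM in Arg and 2133 CPM in Control, 0.970-fold (95% interval 0.954 to 0.987). Of 22 measured members, 4 were past the fold limit upwards and 0 downwards, against 3.7% and 4.25% of all measured genes. The 4 were Ms4a4c, a membrane-spanning protein, with 119 CPM in Arg and 35.3 CPM in Control, Slfn5 with 32.3 CPM in Arg and 17.2 in Control, Zbp1, a sensor of left-handed nucleic acid, with 117 CPM in Arg and 78.0 in Control, and Ifit1 with 43.2 CPM in Arg and 28.2 in Control. Ifi27l2a lay lowest at 697 CPM in Arg and 918 CPM in Control, a log2 ratio of -0.39. Within clusters the picture differed, since all 5 CD8 T clusters had a lower sum in Arg, between 0.751-fold and 0.891-fold. Cluster L1 held 5.80% of Arg and 50.9% of Control CD8 T cells, and L4, with the highest member sum of the 5 in both libraries, held 27.7% and 8.82%. At 1 common mix the log2 ratio was −0.22, with 1 member past the limit upwards and 2 downwards. L4 had 4287 CPM in Arg and 4968 CPM in Control, and L5 had 1202 CPM in Arg and 1602 CPM in Control. Without Ifi27l2a, Bst2 and Ms4a4c the log2 ratio of the class was 0.14.

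NK cells had the lower sum in Arg, 1545 CPM in Arg and 1948 CPM in Control, 0.793-fold (95% interval 0.776 to 0.811). Of 23 measured members, 0 were past the fold limit upwards and 3 downwards, against 0.907% and 1.2% of all genes measured in NK cells. The 3 were Oasl1, which in the mouse represses Irf7, with 23.5 CPM in Arg and 46.9 CPM in Control, Usp18 with 35.1 CPM in Arg and 62.8 CPM in Control, and Bst2 with 153 CPM in Arg and 236 CPM in Control. With doublets kept 7 members were past it downwards, and at 1 common mix of the clusters 9 were. The log2 ratio was below 0 for 21 of the 23 measured members, and the median was -0.22, against 0.02 over all genes. The sum was lower in 4 of 5 clusters, by most in L7 with 1595 CPM in Arg and 2663 CPM in Control, and higher in L10 with 2609 CPM in Arg and 2392 CPM in Control. At the share of C1q transcripts in NK cells, read as for neutrophils, the members would reach 474 CPM in Arg and 279 CPM in Control, below both measured sums and higher in Arg.

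CD4 T cells, a single cluster of 240 Arg and 121 Control cells, had the lowest ratio of the 11 classes, 3223 CPM in Arg and 4139 CPM in Control, 0.779-fold (95% interval 0.741 to 0.818). Of 26 measured members, 0 were past the limit upwards and 12 downwards, against 8.87% and 10.7% of all measured genes. All 3 genes of the ISG15 system were among them, with Isg15 at 139.8 CPM in Arg and 269 CPM in Control, Usp18 at 25.7 CPM in Arg and 54.5 in Control and Herc6 at 96.0 CPM in Arg and 160.1 in Control. Oas3, an oligoadenylate synthetase that activates RNase L, had 25.7 CPM in Arg and 54.5 in Control. The counts were small: 32 UMIs of Usp18 in Control, of which 56.2% came from 5 cells. In Control 5 cells held 45.6% of the Isg15 and 35.1% of the Herc6 UMIs, against 28.4% and 20.3% in Arg. Over all members it was 21.3% in Control and 11.8% in Arg. Isg15 had a UMI in 30.8% of Arg and 36.4% of Control cells, and Herc6 in 31.25% and 32.2%. High cells were 12 of 236 in Arg and 12 of 117 in Control, with overlapping intervals. Ifit2, Rsad2 and Ms4a4c had positive log2 ratios between 0.20 and 0.36, inside the limit.

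Regulatory T cells had 3374 CPM in Arg and 3733 CPM in Control, 0.904-fold (95% interval 0.876 to 0.933), with 2 of 23 measured members past the limit upwards and 5 downwards, against 3.62% and 5% of all genes. Ifi44, an interferon-induced protein of uncertain function, had 12.5 CPM in Arg and 42.6 CPM in Control, the lowest log2 ratio at -1.44, and Usp18 had 22.9 CPM in Arg and 52.4 CPM in Control. Slfn5 and Ms4a4c were the 2 past the limit upwards, with 61.4 CPM in Arg and 38.0 in Control and 29.5 CPM in Arg and 14.4 in Control.

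The dendritic cells were divided. In cDC2 the sum was 5747 CPM in Arg and 6837 CPM in Control, 0.840-fold (95% interval 0.820 to 0.861), and 0 of 32 measured members were past the limit upwards and 12 downwards, against 5.46% and 5.96% of all genes. Ifit2 had 74.1 CPM in Arg and 253 CPM in Control, which is 0.293-fold (95% interval 0.249 to 0.346). Rsad2 had 71.4 CPM in Arg and 217 CPM in Control, and Ifit1 had 67.1 CPM in Arg and 128 CPM in Control. All 4 IFIT genes were past the limit downwards, where all 4 had been past it upwards in neutrophils. Few Control cells carried this: of 134 Control cDC2, 5 cells held 53.8% of the Ifit2 UMIs and 60.8% of the Rsad2 UMIs, against 24.2% and 32.8% in the 278 Arg cDC2. The shares of cells with an Ifit2 UMI were 29.9% in Arg and 35.1% in Control. The sum was higher in Arg in 2 of the 4 cDC2 clusters and lower in 2, and at 1 common mix it was 6199.8 CPM in Arg and 6808 CPM in Control. High cells were 18.5% of Arg and 19.5% of Control cDC2, with overlapping intervals.

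In cDC1, which cross-present antigen to CD8 T cells, the sum was 3205 CPM in Arg and 2612 CPM in Control, 1.23-fold (95% interval 1.19 to 1.26), and 10 of 26 measured members were past the limit upwards and 0 downwards (7.07% and 4.99% of all genes). Ms4a4c had 219.9 CPM in Arg and 82.0 CPM in Control, Rtp4, a receptor chaperone, 43.1 CPM in Arg and 18.3 in Control, and Parp14, a mono-ADP-ribosyltransferase, 113 CPM in Arg and 57.2 in Control. The sum was higher in Arg in 1 of 3 cDC1 clusters and lower in 2. Cluster D8 had the highest sum, 5236 CPM in Arg and 5558 CPM in Control. It held 24.7% of Arg and 9.66% of Control cDC1. D1 had 2707 CPM in Arg and 2490 CPM in Control, and D5 had 1955 CPM in Arg and 2120 CPM in Control. Xcr1 and Clec9a were among the leading genes of D1 and D5 but not of D8. What the differing shares of D8 contributed to the class values was not tested. C1q transcripts in cDC1 stood at 17.1% of their level over all Arg cells and 8.72% over all Control cells. Read as for neutrophils, the members would reach 799 CPM in Arg and 333 CPM in Control, below both measured sums and higher in Arg. The part of such transcripts in the cDC1 difference was not tested. Mature DC, which leave tissue for lymph nodes, had 3689.7 CPM in Arg and 2794 CPM in Control, 1.32-fold (95% interval 1.27 to 1.37), with 12 of 27 past the limit upwards and 0 downwards (7.66% and 10.9%). Isg15 had 402 CPM in Arg and 149 CPM in Control in these cells and Rsad2 64.5 CPM in Arg and 24.4 CPM in Control, and both of their clusters had the higher sum in Arg. Plasmacytoid DC, known as strong producers of interferon alpha, had 1 of 21 measured members past the limit upwards, Eif2ak2 at 38.9 CPM in Arg and 25.4 in Control, and 1 downwards, Oasl2 at 19.0 CPM in Arg and 34.2 in Control (6.63% and 4.65% of all genes).

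**Figure D5:**
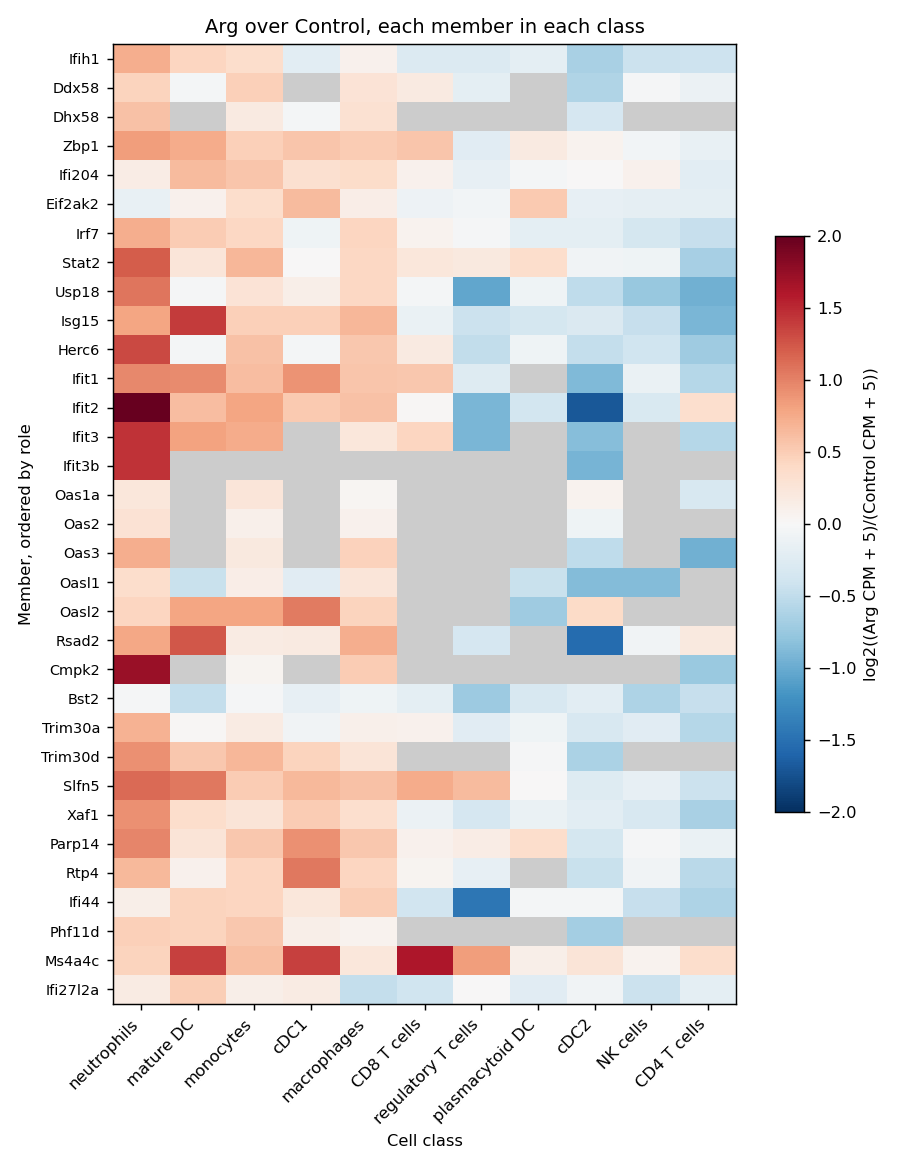
Log2 ratio of each member, Arg over Control, from −2 in blue to 2 in red, with members in rows by role and the 11 classes in columns from the highest to the lowest ratio of the sum; grey marks members below 20 CPM in both libraries. Neutrophils are red for most members (Ifit2 2.01), cDC2 are blue for the IFIT genes and Rsad2 (Ifit2 -1.70), and Ms4a4c and Slfn5 are red in most classes.

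By role, the IFIT genes were past the limit upwards for 3 of 3 measured in monocytes and 2 of 3 in macrophages, where 4.43% of all monocyte and 8.71% of all macrophage genes were. The oligoadenylate synthetase genes were past it for 1 of 5 in monocytes and 0 of 5 in macrophages, and the sensors for 1 and 1 of 6. None of these was past it in monocytes pooled with C0, 1 member in all was past it in monocytes with doublets kept, and none was in macrophages at the common mix. Read by member, no gene was past the limit in 1 direction in all classes that measured it. Slfn5 was past it upwards in 7 of 11 classes and downwards in none, Ifit1 upwards in 6 and downwards in 2 of 10, and Ms4a4c and Zbp1 upwards in 5 of 11 each. Usp18 was past it downwards in 4 classes and upwards in 1, and Ifi27l2a, Oas1a and Oas2 in none in either direction. The sensors Ifih1 and Ddx58, which encode MDA5 and RIG-I, were past it in 2 and 1 classes. In Arg the level was highest in neutrophils for most members, by count and not per length: Isg15 had 2181 CPM in Arg and 1259 in Control neutrophils, while Ifi204, a sensor of the HIN-200 family, was highest in monocytes with 668 CPM in Arg and 452 in Control. Ifi204 has close relatives whose reads may be shared.

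The rest of the pathway was read from lists of its parts. Of 20 interferon ligand genes, 7 had a UMI in either library and 1 reached 20 CPM in a compared class. Ifnb1 in plasmacytoid DC had 1.90 CPM in Arg and 43.5 CPM in Control, from 4 and 65 UMIs, and the Control UMIs lay in 5 cells. Over all kept cells Ifnb1, the gene for interferon beta, had 136 UMIs in 46 Arg cells and 329 UMIs in 47 Control cells, and 19 and 28 of those cells were macrophages. The transcripts were concentrated: the 10 richest cells held 52.9% of them in Arg and 78.7% in Control, and 1 Control cell held 105 UMIs, where the highest Arg cell held 16. The number of cells with an Ifnb1 UMI was thus nearly equal, and the UMIs differed through a few cells. Of the Ifnb1 cells deep enough to be thinned, 40.9% of 44 in Arg and 36.2% of 47 in Control had a high member sum. Ifna2 had 10 UMIs in 3 Arg cells and 28 in 8 Control cells.

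The receptor and signalling list holds Socs1, a feedback inhibitor that interferon gamma also induces. In macrophages 1 of 10 measured genes was past the limit upwards, a share near the 8.71% of all genes. It was Socs1, with 145 CPM in Arg and 49.4 CPM in Control. Socs1 was also past it in monocytes, with 396 CPM in Arg and 181 CPM in Control, and in neutrophils, with 346 CPM in Arg and 94.0 CPM in Control. Neutrophil Irf9, the DNA-binding subunit of ISGF3, had 157 CPM in Arg and 94.0 CPM in Control, past the limit upwards. In neutrophils 1 gene of the list was past it downwards, the receptor chain Ifnar1 with 48.5 CPM in Arg and 96.2 CPM in Control. In CD8 T cells and NK cells none of the 10 was past the limit in either direction. The list around nucleic acid sensing and interferon induction is not limited to genes that induce interferon. In macrophages 1 of its 11 measured genes was past the limit upwards, against 8.71% of all genes. It was Samhd1, a nucleotide hydrolase, with 465 CPM in Arg and 310.2 CPM in Control. In neutrophils 3 of 8 were past it upwards, Adar, Tmem173 (STING) and Samhd1, against 13.3% of all genes.

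Of the interferon-stimulated genes outside the members, 29 of 61 measured in neutrophils were past the limit upwards and 4 downwards, against 13.3% and 18% of all genes. Among the 4 was Lgals3bp at 11.3 CPM in Arg and 34.3 CPM in Control. The chemokine gene Cxcl10 had 819 CPM in Arg and 312 CPM in Control, and Isg20, an exonuclease, had 396 CPM in Arg and 150.0 CPM in Control. In cDC2 1 of 59 was past it upwards and 6 downwards, against 5.46% and 5.96% of all genes. Of the genes that lean towards interferon gamma, in macrophages 21 of 25 were past the limit upwards, in monocytes 19 of 25, in neutrophils 24 of 25 and in CD8 T cells 12 of 22, and none was downwards in these classes. The shares of all genes past it upwards there were 8.71%, 4.43%, 13.3% and 3.7%. In NK cells 3 of 22 were upwards, against 0.907% of all genes. In cDC2 0 of 23 were upwards and 2 downwards, against 5.46% and 5.96% of all genes. In CD4 T cells 7 of 23 were upwards and 3 downwards, against 8.87% and 10.7%. The median log2 ratio of this list was 0.71 in macrophages and 1.16 in neutrophils, where the members had 0.39 and 0.73. Gbp5, an interferon-induced GTPase, had 462 CPM in Arg and 116 CPM in Control in neutrophils, and Nos2, the inducible nitric oxide synthase, had 169 CPM in Arg and 26.0 CPM in Control in macrophages. Nos2 was a leading gene of cluster C11, which held 21.1% of Arg and 2.75% of Control macrophages. The genes that lean towards interferon gamma were not read at the common mix of the clusters, so the part of the differing cluster shares was not tested. Many members respond to interferon gamma as well, although the lists share no gene.

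Cells with a high member sum also carried interferon genes that the sum did not use. Among the other interferon-stimulated genes, 57 of 68 measured in Arg macrophages and 49 of 65 in Control macrophages were past the limit upwards in high over other cells of the same library, against 5.19% and 5.46% of all non-member genes. Downwards it was 1 in each, against 3.79% and 5.06%. In monocytes the counts were 53 of 68 in Arg and 58 of 69 in Control, against 4.04% and 5.27%, and downwards they were 2 and 0, against 6.04% and 5.2%. Slfn4, a schlafen gene of myeloid cells, had 264 CPM in high and 33.1 in other cells of Arg macrophages, and 119 CPM in high and 24.3 in other cells of Control macrophages, and Isg20 had 112 CPM in high and 8.80 in other cells of Arg and 47.5 CPM in high and 4.91 in other cells of Control. Ifi27 went the other way in macrophages, with 42.0 CPM in high and 96.6 in other cells of Arg and 40.4 CPM in high and 84.1 in other cells of Control. Socs1 was past the limit in high monocytes of Control, at 235 CPM in high and 159.7 in other cells. Ifnb1 reached the minimum level in Control macrophages, with 28.0 CPM in high and 0.497 in other cells, but not in Arg macrophages. Few cells carried it: over all Control cells its 329 UMIs lay in 47 cells, 28 of them macrophages, and 1 cell held 105.

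In clusters C8 and C12, most of whose cells lacked a Ptprc UMI, the member sums were low. C8 had 2603 CPM in Arg and 2479 CPM in Control, with 3 of 24 measured members past the limit upwards and 0 downwards (1.89% and 3.4% of all genes). C12 had 2491 CPM in Arg and 2297 CPM in Control, with 1 of 22 upwards and 0 downwards (3.02% and 6.42%).

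When the interferon genes were kept among the clustering genes, 1 cluster formed whose 10 leading genes held 8 members, and its size is not compared between the libraries because the members define it. It held 436 Arg and 284 Control cells, drawn from monocytes (149 in Arg and 56 in Control), macrophages (134 and 129) and cluster C0 (93 and 78).

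The genes most like the members across classes were found by Spearman correlation of each gene with the summed member level over 22 points, 11 classes in each of the 2 libraries. The points share libraries and cell types, so the values describe likeness only. The median over 6322 other genes was -0.22, and among the highest were Alas1 (0.93), which starts haem synthesis, Il6ra (0.91), the interleukin receptor chain, Acap2 (0.90), the adhesion receptor Cd44 (0.88), Tor1aip1 (0.87), Atp6v1c1 (0.87), Trim30c (0.86), Slc49a4 (0.86) and Slc43a2 (0.86). Of those named, only Trim30c is on the list of other interferon-stimulated genes. Among the members, Ifit2 (0.88), Trim30a (0.84) and Irf7 (0.82) followed the sum of the rest most closely, and Bst2 (0.19), Ddx58 (0.21) and Herc6 (0.36) least.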

How the data were processed

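Single-cell 3′ libraries of CD45-selected cells from CT26 tumours were read from the deposited UMI counts, raw whole numbers per gene and cell. Cell Ranger appears as version 7.0.1 in the file header but as 2.2.2, with GRCm38, per the submitters' processing notes. The sources used here do not state whether introns were counted. Depth was 155927693 UMIs over 14540 barcodes for Arg, and 191505551 over 14343 for Control.

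Barcodes under 200 genes or 500 UMIs, or above 10% mitochondrial UMIs, were dropped, and doublets called with Scrublet in Scanpy 1.11.5 were removed, 884 in Arg and 687 in Control. Leiden clusters (resolution 1, 2000 variable genes, 30 components, 20 neighbours) were made without 111 interferon genes and named from at least 3 detected markers. Counts were summed per class and library and scaled to CPM. Intervals are exact Poisson, Clopper-Pearson or conditional binomial. The log2 ratio and fold limit were tested on counts simulated from the summed macrophage and CD4 T profiles. The filters, clustering and thinning were not tested in this way. TMM factors for 1 alternative came from edgeR 4.0.16.

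The members and all gene lists were chosen with earlier results of these data known. Members named in a class were drawn from its 5 most abundant and from its 5 highest and 5 lowest log2 ratios. Members past the fold limit in any class were also drawn on, and list genes were drawn by the same ranks. Not every gene that met these rules is named. Slfn4, Isg20 and Ifi27 in high cells, Socs1 there, and Ifnb1 and Ifna2 were chosen after their values were seen. A few results are not reported here. Alternatives covered scaling, cell filters, doublets, clustering, thinning, pseudocount, the minimum level and the cluster mix.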

Additional observations from a re-analysis of the deposited data

Results flagged for a closer look

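The summed member level in neutrophils and in CD4 T cells was singled out because the libraries differed in opposite directions. On the log2 scale, Arg over Control, it was 0.73 in neutrophils and -0.36 in CD4 T cells. The difference between these classes was not tested, since each diet has 1 library.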

How the results depend on the processing

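The neutrophil, CD4 T and cDC2 sums kept their direction in every alternative that gave a value; CD4 T cells were too few at Leiden resolution 0.5, and classes of 1 cluster have no common mix. These 3 classes, the common-mix counts and the pooling with C0 and C4 were added after the data had been seen. The macrophage log2 ratio of the sum was 0.13 and became 0.0919 with TMM scaling, 0.122 at 5% mitochondrial UMIs, 0.0367 with doublets kept, 0.0679 at Leiden resolution 0.5, 0.16 at resolution 2, 0.30 with interferon genes kept in the clustering, 0.45 without Ifi27l2a, Bst2 and Ms4a4c and -0.0437 at 1 common mix of the clusters. The difference in high macrophages, 1.85 percentage points, became 5.28 with interferon genes kept. The 9 members higher in Arg macrophages became 5 with TMM scaling, 2 with doublets kept, 1 at resolution 0.5 and 0 at the common mix, and 1 member was lower with TMM scaling, with doublets kept and at the common mix, where Rsad2 turned to -0.0730. The monocyte log2 ratio, 0.36, became 0.41 at 5% mitochondrial UMIs, 0.17 with doublets kept, 0.0640 at resolution 0.5 and 0.23 at resolution 2. It was 0.32 with interferon genes kept and 0.44 without Ifi27l2a, Bst2 and Ms4a4c. The difference in high monocytes, 19.0 points, became 10.8 at 10 member UMIs, 4.70 at 40 and 12.1 without the same 3 members. It was 10.4 with doublets kept, 10.1 at resolution 0.5, 13.01 at resolution 2 and 12.1 with interferon genes kept. The 12 members higher in Arg monocytes became 1 with doublets kept and 1 at resolution 0.5, where Slfn5 turned to -0.0124. The CD8 T log2 ratio, -0.04, became -0.0172 at resolution 0.5, -0.00221 with interferon genes kept and 0.14 without the same 3 members. At the common mix it was -0.22, with 1 member higher and 2 lower. The NK log2 ratio, -0.33, became -0.43 with doublets kept, -0.40 at resolution 0.5, -0.41 at resolution 2 and -0.45 with interferon genes kept. It was -0.29 without the same 3 members and -0.49 at the common mix. The difference in high NK cells was -5.35 points at 10 member UMIs, against -1.54 at 20. The 3 members lower in Arg NK cells became 7, 5, 8 and 9 with doublets kept, at resolution 0.5, with interferon genes kept and at the common mix. The cells under a class name also changed. With doublets kept, a cluster led by Ly6i, as C0 was, took the name monocyte (1910 Arg and 663 Control cells). Another, with the C4 leading genes Pf4 and Cxcl3, took the name macrophage (1938 and 836 cells). At resolution 0.5 the monocyte cluster held 2530 Arg and 954 Control cells, with Ly6i among its leading genes. What these changes contributed to the shifts was not tested, nor was any other cause. No paired analysis was possible because each diet has 1 library. Neutrophils were shallow, which limits calls for low members.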
